A study of Mus musculus with 8 samples.

Results

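The genes described here lie around Ncor1 on mouse chromosome 11 and were selected on their measured difference between NCOR knockout and control liver. They are 2610507I01Rik, Zfp39, Ulk2, Flcn, Tom1l2, Prpsap2, Dhrs7b and Tmem220, 8 of the 22180 genes measured, and together they hold 10 of the 23521 probe sets annotated to a single gene. Every one was measured, and no filter on dim signal was applied. NCOR KO livers came from mice given adeno-associated virus (AAV) that carries Cre recombinase, and WT livers from mice given AAV with GFP, 4 arrays per group. All mice were 3 months old, ate normal chow, and were sampled 2 weeks after the injection into a vein, at ZT10 (10 hours after lights-on). By the design text both viruses went into floxed mice, whereas the labels call the GFP animals wild-type, so the allele the controls carry is not settled here. Cre and loss of NCOR cannot be told apart, and if the controls lacked the floxed allele, neither can a chromosome segment inherited with that allele. Ncor1 itself was not analysed here, so the deletion was not checked on these arrays. The labels call the arrays of each group biological replicates but do not link them to named animals. The p-values therefore measure the spread between these samples.

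NCOR, the product of Ncor1, is a corepressor that nuclear receptors recruit, together with the deacetylase HDAC3, to silence their target genes. The gene has many neighbours with unrelated jobs. Ulk2 encodes a kinase that starts autophagy, and Flcn encodes folliculin, which acts on Rag GTPases at the lysosome and, with FNIP partners, restrains the transcription factors TFEB and TFE3. Tom1l2 encodes an adaptor that binds ubiquitin and clathrin in endosomal sorting. Prpsap2 encodes a noncatalytic partner of the PRPP synthetases, which make the sugar phosphate that nucleotide synthesis starts from. Dhrs7b encodes a peroxisomal reductase of ether lipid synthesis, also called PexRAP, and Zfp39 a C2H2 zinc finger protein. Tmem220 encodes a predicted membrane protein, and 2610507I01Rik is a long noncoding RNA in the RefSeq annotation.

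Promoter sequence was set beside the expression values for the genes with an entry in the RefSeq promoter table (build GRCm38.p6), 7 of the 8. The 250 bases before the start are printed for the gene with the largest difference (2610507I01Rik), for both genes that hold a nuclear receptor half-site, AGGTCA (Ulk2 and Tom1l2), and for the only gene that was higher in NCOR KO liver (Dhrs7b). Each runs 5′ to 3′ along the strand of the gene, and capitals mark AGGTCA.
2610507I01Rik, chr11:59202432-59202681, minus strand: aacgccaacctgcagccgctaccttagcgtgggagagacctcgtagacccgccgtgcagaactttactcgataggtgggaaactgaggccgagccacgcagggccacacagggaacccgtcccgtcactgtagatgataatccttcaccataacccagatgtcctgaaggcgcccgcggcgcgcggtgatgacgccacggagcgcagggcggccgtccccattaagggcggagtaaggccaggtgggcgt
Ulk2, chr11:61855093-61855342, minus strand: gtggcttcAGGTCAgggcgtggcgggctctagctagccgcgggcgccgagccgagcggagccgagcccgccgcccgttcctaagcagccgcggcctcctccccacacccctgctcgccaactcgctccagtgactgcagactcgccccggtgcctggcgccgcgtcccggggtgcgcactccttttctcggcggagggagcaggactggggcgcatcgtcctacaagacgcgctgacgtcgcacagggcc
Tom1l2, chr11:60352906-60353155, minus strand: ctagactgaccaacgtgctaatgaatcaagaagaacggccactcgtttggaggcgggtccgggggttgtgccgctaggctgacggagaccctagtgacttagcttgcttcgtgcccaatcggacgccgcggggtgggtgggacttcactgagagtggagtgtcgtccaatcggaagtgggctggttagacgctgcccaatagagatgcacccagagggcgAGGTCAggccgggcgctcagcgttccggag
Dhrs7b, chr11:60830381-60830630, plus strand: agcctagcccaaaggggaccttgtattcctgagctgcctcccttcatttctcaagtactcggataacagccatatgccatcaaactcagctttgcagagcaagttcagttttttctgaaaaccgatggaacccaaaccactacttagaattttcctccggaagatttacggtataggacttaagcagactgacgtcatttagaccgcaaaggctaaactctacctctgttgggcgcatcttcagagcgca

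The half-site of Ulk2 ran from 242 to 237 bases before the start and that of Tom1l2 from 30 to 25 bases before it, both on the strand of the gene. On either strand AGGTCA occurred in 14% of all 32851 promoter windows of this length. TAGGTCA, which contains it, was found in 2.23% of windows, CACGTG in 6.02%, TCACGTG, which contains that, in 3.13%, and TATAAA in 12.4%. Among the 8 windows of these genes, 1 held TATAAA, that of a second start of Prpsap2, and 0 held the other 3 motifs. The windows ranged from 35.2% to 72.8% G and C, and from 1 to 31 CpG steps, so base composition was not shared. The median of all windows was 52.4% and 6 CpG steps. A match is a run of letters and no evidence of binding.

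2610507I01Rik had the largest difference of these genes. Its log2 intensity was 5.13, 5.32, 5.27 and 5.11 in NCOR KO livers 1 to 4, against 8.36, 7.79, 8.10 and 8.16 in WT livers 1 to 4. The highest knockout value lay 2.47 log2 units below the lowest control value. The group means were 5.21 ± 0.11 in NCOR KO and 8.10 ± 0.23 in WT (SD, n = 4 each), a difference of -2.90, which is 7.45-fold lower. By size of difference the gene stood 3rd of all 22180. No detection call came with the values used here, so whether the knockout signal is above background is not known, and the fold is a ratio of measured intensities only. Because these genes were chosen for this contrast, their differences are given as a description without a test.

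Zfp39 was represented by a brighter and a dimmer probe set. The brighter one read 6.32, 6.53, 6.49 and 6.36 in NCOR KO livers, against 7.45, 7.39, 7.49 and 7.23 in WT livers, and the groups lay 0.70 apart at their nearest values. Its difference was -0.97, or 1.95-fold lower in NCOR KO. The dimmer probe set read 5.92, 6.08, 6.19 and 6.09 in NCOR KO livers, against 6.42, 6.35, 6.25 and 6.18 in WT livers, and there the groups overlapped slightly. That difference was -0.23, and the mean of both probe sets gave -0.60, so the size for Zfp39 depends on which probe set is read.

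Ulk2, Flcn and Tom1l2, the autophagy, lysosome and endosome genes, were all lower in NCOR KO liver. Ulk2 read 9.01, 9.25, 9.32 and 9.25 in NCOR KO livers, against 9.94, 10.02, 9.86 and 9.83 in WT livers, with 0.50 between the nearest values of the groups. The difference was -0.70, or 1.63-fold lower in NCOR KO (9.21 ± 0.14 in NCOR KO and 9.91 ± 0.09 in WT, SD, n = 4 each). NCOR KO liver 1 was the lowest of its group.

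Flcn read 7.75, 7.66, 7.71 and 7.53 in NCOR KO livers, against 8.22, 7.90, 8.05 and 8.14 in WT livers. The groups did not overlap, but WT liver 2 came within 0.15 of the highest knockout liver. The difference was -0.41 (7.66 ± 0.10 in NCOR KO and 8.08 ± 0.14 in WT, SD, n = 4 each), or 1.33-fold lower in NCOR KO.

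Tom1l2 also had a pair of probe sets, and both were lower in each NCOR KO liver than in any WT liver. The brighter one read 8.23, 8.08, 8.18 and 8.06 in NCOR KO livers, against 8.56, 8.38, 8.41 and 8.61 in WT livers, a difference of -0.35. The dimmer one read 6.45, 6.12, 6.21 and 6.33 in NCOR KO livers, against 6.79, 6.91, 7.21 and 7.18 in WT livers. Its difference of -0.74 was larger than that of the brighter one, whereas in Zfp39 the dimmer probe set had the smaller difference. In the RefSeq table Tom1l2 overlaps Drc3, a lncRNA and a pseudogene, and the values used here do not say which transcripts each probe set reads. Drc3 differed by 0.04 ± 0.10 (SE) on its own probe set (limma adjusted p = 0.878), a sign that turned with each array centred on its median (-0.00328), with array weights and without WT replicate 2. The other 7 genes overlap no annotated gene.

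Of the metabolic genes, Prpsap2 was lower and Dhrs7b higher. Prpsap2 read 7.97, 8.19, 8.15 and 8.28 in NCOR KO livers, against 8.45, 8.48, 8.56 and 8.52 in WT livers, a difference of -0.35, or 1.28-fold lower in NCOR KO. NCOR KO liver 1 was again the lowest, and the groups came within 0.16 of each other.

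Dhrs7b read 9.49, 9.62, 9.53 and 9.62 in NCOR KO livers, against 9.03, 9.06, 8.99 and 9.01 in WT livers. These were the tightest groups of the 8 genes, with SDs of 0.07 and 0.03, and they lay 0.42 apart. The difference was 0.54, or 1.45-fold higher in NCOR KO, opposite in direction to the other 7 genes. Tmem220 read 8.15, 8.27, 8.30 and 8.39 in NCOR KO livers, against 8.53, 8.71, 8.62 and 8.63 in WT livers. Its difference was -0.34, or 1.27-fold lower in NCOR KO, and the groups came within 0.14 of each other.

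**Figure D1:**
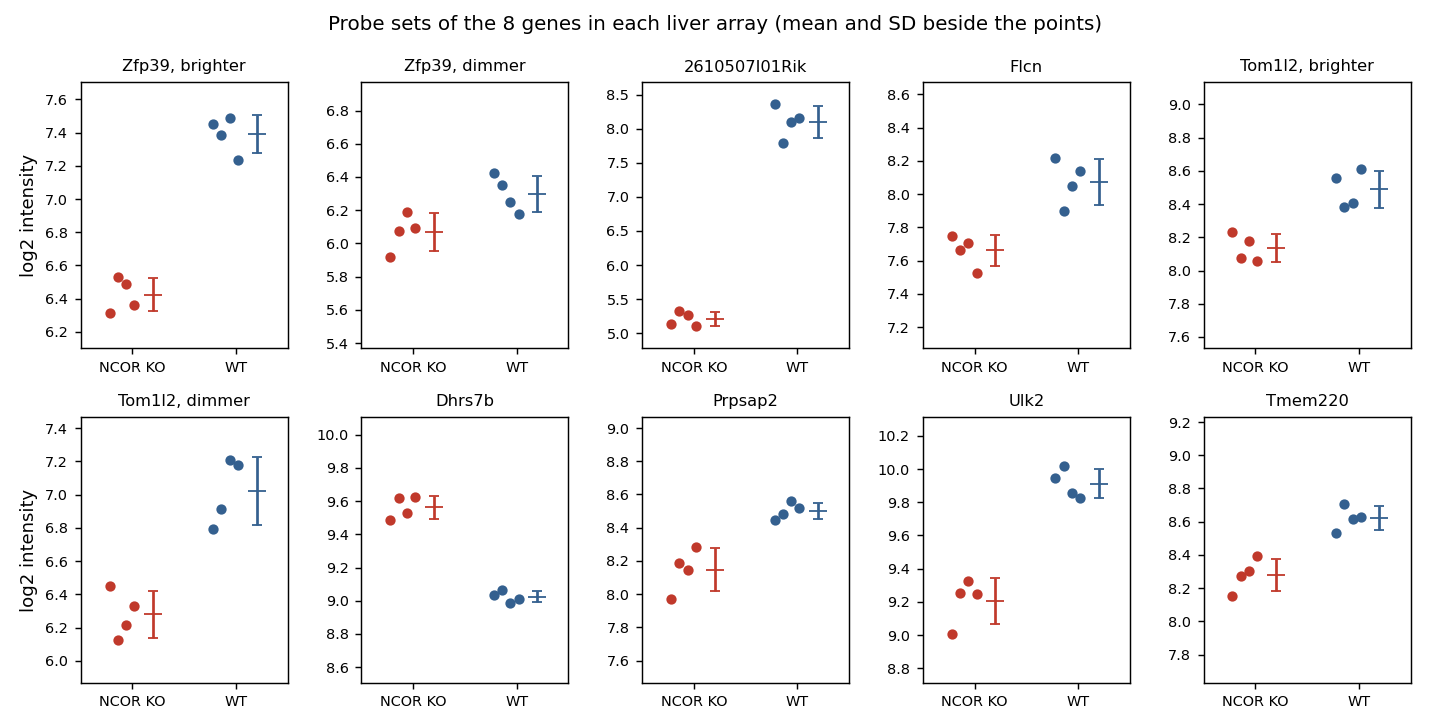
Log2 intensity of each probe set of the 8 genes in each array (points), with the mean and SD of each group beside them; NCOR KO is red and WT blue, genes run in chromosome order, and each panel has its own vertical axis. The knockout points lie wholly below the control points in 8 panels, wholly above in Dhrs7b, and overlap them in the dimmer probe set of Zfp39.

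On the brightest probe set of each gene, 7 of the 8 were lower and 1 was higher in NCOR KO liver, and all 8 passed a limma adjusted p under 0.05. Over all genes 1.65% passed (366 of 22180), 0.834% as lower (185) and 0.816% as higher (181). With each array centred on its median the calls over all genes became 383 lower and 147 higher. Groups without overlap were found for 10.4% of all genes. Since the 8 were picked for this difference, nothing is read from their counts. The probe sets without overlap were 9 of 10, where 10.1% of all single-gene probe sets had none.

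The threshold fell within a close series of differences. The members nearest to it on the inside were Tmem220 (-0.34), Prpsap2 (-0.35) and Tom1l2 (-0.35). Just outside it were Rnf187 (-0.36), Trim11 (-0.36), H2aw (-0.39) and Wrap53 (-0.30), of which the first 3 have differences at least as large as those 3 members and Wrap53 a smaller one.

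Position was then described by counting measured genes outward from Ncor1 in the order of the RefSeq gene table. Ulk2 and Prpsap2 are adjacent, 5 and 6 genes before Ncor1, followed outward by Dhrs7b at 26, Tom1l2 at 40, Flcn at 52, 2610507I01Rik at 71 and Zfp39 at 80. Tmem220 is the only one on the far side, 34 genes after Ncor1. Among the 200 measured genes nearest to Ncor1, 100 on each side, 9 passed, which is 4.5%. Of the 100 before Ncor1, 6 were lower and 2 higher, and of the 100 after it 1 was lower and 0 were higher. An unadjusted p under 0.05 was found for 31 of the 100 before Ncor1, 13 of the 100 after it, and 15.9% of all genes. The 31 include the 7 described genes on that side, which were chosen for their difference. With the 8 genes left out, 36 of the other 192 had one (18.8%), a share that pools both sides of Ncor1. In the narrower span from Zfp39 to Tmem220, also without the 8, 24 of 106 genes had an unadjusted p under 0.05 (22.6%). Other blocks of 100 genes along chromosome 11 had 10 to 27. The rest of chromosome 11 had 24 passing of 1449 genes (1.66%). The 9 genes are the 8 described here and Srebf1. The remaining 192 genes therefore had 1 call (0.521%), a share that was set by taking out genes chosen for their difference. The median difference of the 192 was 0.02, beside 0.01 over all genes. The count of 9 became 4 without NCOR_KO replicate 1, NCOR_KO replicate 2 or WT replicate 1 and 5 without NCOR_KO replicate 3 or WT replicate 4. It was 15 with each array centred on its median (2 higher and 13 lower) and 14 with array weights.

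**Figure D2:**
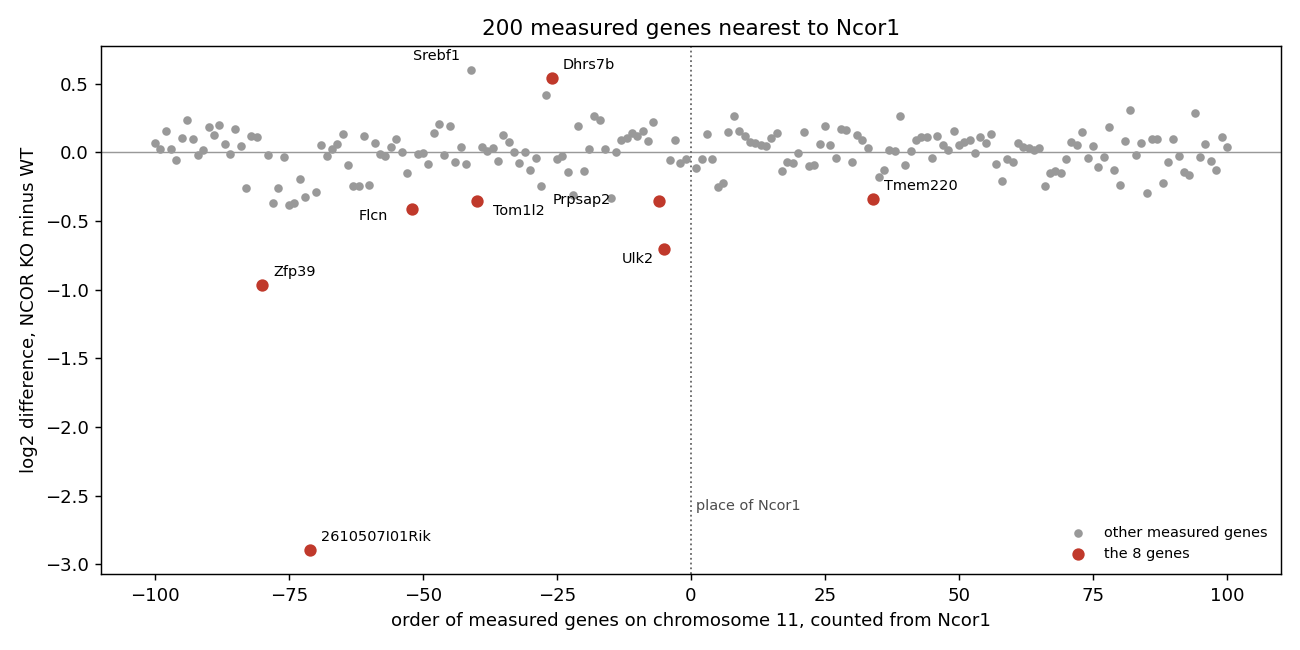
Log2 difference (NCOR KO minus WT) of the 200 measured genes nearest to Ncor1, placed by their order on chromosome 11, with the 8 genes in red and the place of Ncor1 as a dotted line. The changed genes are scattered among many with differences near 0, 2610507I01Rik at -2.90 lies far below the rest, and Dhrs7b (0.54) and Srebf1 (0.60) stand above.

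The genes closest to the floxed gene did not pass. They were Specc1, Zswim7 (a factor in homologous recombination) and Ttc19 (an assembly factor of respiratory complex III) on one side, and Pigl (an enzyme of GPI anchor synthesis), Cenpv (a centromere protein) and Trpv2 (a cation channel) on the other. Their 6 differences ran from -0.11 to 0.13, with limma adjusted p-values from 0.420 to 0.808 and 0 unadjusted p-values under 0.05. The values of Pigl were 7.49 ± 0.20 in NCOR KO and 7.60 ± 0.07 in WT, and those of Ttc19 were 8.03 ± 0.13 in NCOR KO and 8.08 ± 0.11 in WT (SD, n = 4 each). Akap10, an anchor for protein kinase A, is the next gene after Ulk2 toward Ncor1, and it differed by -0.05 ± 0.06 (SE, adjusted p = 0.677), beside the -0.70 of Ulk2.

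The direct neighbours of the changed genes were examined in the same way. Of 12 such genes with an established symbol, 1 passed by limma (1.65% of all genes did) and 5 had an unadjusted p under 0.05 (15.9% of all genes did). The one that passed was Srebf1, the lipogenic transcription factor gene, which lies next to Tom1l2 and was higher by 0.60 ± 0.11 (SE, adjusted p = 0.0285; 9.31 ± 0.17 in NCOR KO and 8.71 ± 0.19 in WT, SD, n = 4 each). Its adjusted p lay between 0.0151 and 0.0967 over 16 alternative fits and missed the threshold in 6 of them, at 0.0967 with the replicate number as a block, 0.0772, 0.0962 and 0.0553 without NCOR_KO replicates 1, 2 and 4, 0.0758 without WT replicate 1, and 0.0870 without both WT replicate 2 and NCOR_KO replicate 1. Shmt1, the cytosolic serine hydroxymethyltransferase gene next to Dhrs7b, was at 0.42 ± 0.12 (SE, adjusted p = 0.111, or 0.0385 without WT replicate 3). Tmem11, on the other side of Dhrs7b, was at -0.04 ± 0.08 (SE, adjusted p = 0.815), or 0.02 without NCOR_KO replicate 4. Adprm, which follows Tmem220, was at -0.18 ± 0.07 (SE, adjusted p = 0.250), and Tmem238l, which precedes it, at 0.03 ± 0.07 (SE, adjusted p = 0.873), a sign that turned under quantile normalization and array centring. Fam83g beside Prpsap2 was at 0.22 (adjusted p = 0.342) and Pld6 beside Flcn at -0.15 (adjusted p = 0.578).

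The stretch from Zfp39 to Mrpl55, which holds 2610507I01Rik, was looked at gene by gene after its values were seen, and it gets no test as a group. All 11 measured genes in it had a lower mean in NCOR KO liver, also under quantile normalization and with each array centred on its median, while leaving out WT replicate 2 left 10. In 8 of the 11 every NCOR KO value lay below every WT value, where 5.49% of all genes show this. The 8 include Zfp39 and 2610507I01Rik, which were chosen for this difference, and the other 9 genes gave 6. Because the stretch was picked after its values were seen, nothing is read from that contrast. The count of 8 was 7 under quantile normalization and 8 or 9 without single arrays. Only Zfp39 and 2610507I01Rik passed the threshold, and the other 9 had adjusted p-values from 0.0501 to 0.916.

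Rnf187, a RING finger ubiquitin ligase gene, read 9.48, 9.35, 9.28 and 9.29 in NCOR KO livers, against 9.86, 9.57, 9.78 and 9.64 in WT livers (-0.36, adjusted p = 0.0501). Trim11, a tripartite motif ubiquitin ligase gene, read 7.08, 7.34, 7.32 and 7.23 in NCOR KO livers, against 7.58, 7.45, 7.70 and 7.69 in WT livers (-0.36, adjusted p = 0.0547). Mrpl55, a mitochondrial ribosomal protein gene directly beside 2610507I01Rik, read 7.81, 7.82, 7.65 and 8.02 in NCOR KO livers, against 8.23, 8.10, 8.06 and 8.05 in WT livers (-0.29, adjusted p = 0.126). In these 3 genes the groups were apart but by small gaps. Guk1, the guanylate kinase gene on the other side of 2610507I01Rik, was at -0.32 ± 0.10 (SE, adjusted p = 0.131), and its groups overlapped. The differences of the 9 genes that did not pass ran from -0.39 to -0.02, beside -2.90 for 2610507I01Rik and -0.97 for Zfp39. Btnl10 (-0.02) and Trim17 (-0.04) in the same stretch were close to 0.

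**Figure D3:**
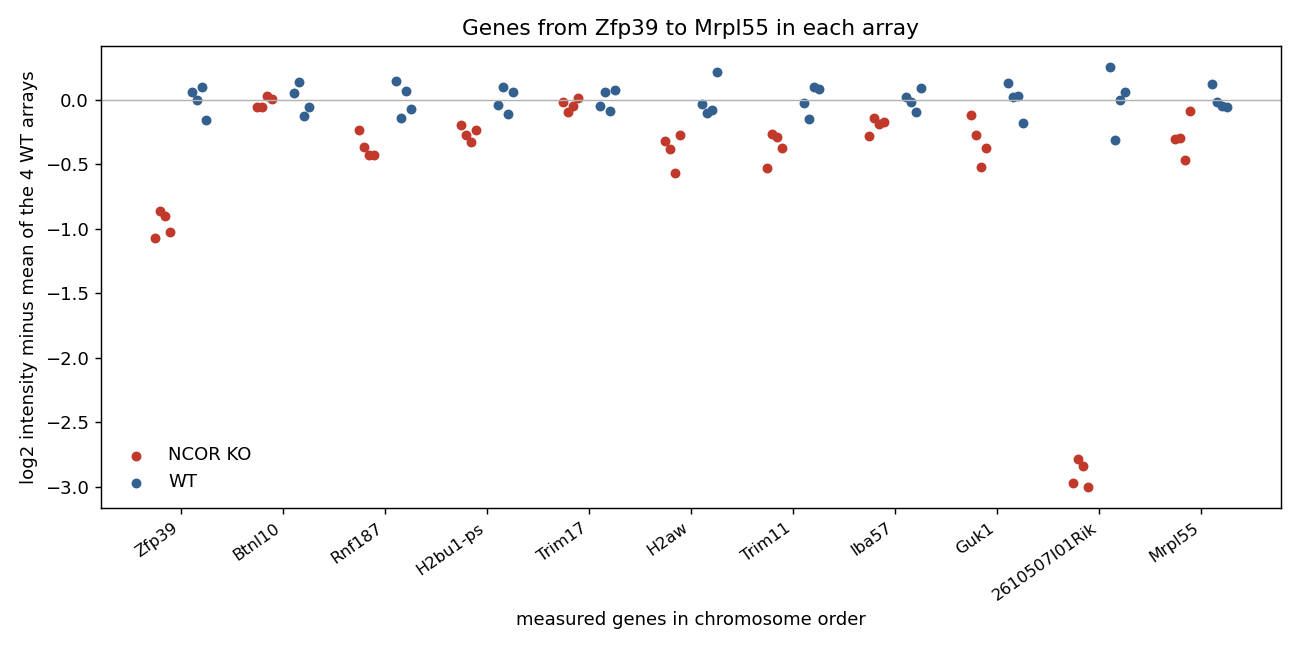
Log2 intensity of 11 neighbouring measured genes minus the mean of the 4 WT arrays, in chromosome order, with NCOR KO arrays in red to the left of WT arrays in blue. The red points of 2610507I01Rik lie near -2.90 and those of Zfp39 near -0.97, most other genes sit lower than 0 by less than that, and Btnl10 (-0.02) and Trim17 (-0.04) are close to 0.

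The 8 genes were chosen by the difference between groups, and the spread within groups enters the test of it. Each value was taken minus its group mean, and Pearson correlations were computed over the 8 arrays for 28 pairs, as a description without a test. They ran from -0.86 to 0.84 with 14 above and 14 below 0. Ulk2, Prpsap2, Dhrs7b and Tmem220 varied together in all 6 of their pairs (0.48 to 0.79), and against Tom1l2 and Flcn in all 8 pairs (-0.86 to -0.42). This grouping was noticed after the values were seen, and it rests in part on a pair of arrays. NCOR KO liver 1 was the lowest of its group for 5 of the 8 genes, and WT liver 2 was the lowest of its group for 3. Those arrays also lay at the same end of the second principal component of all genes (20.4% of variance), at 12.2 and 20.5. Without them the correlations over 6 arrays ran from -0.78 to 0.88 in the first set, 3 above 0, and from -0.99 to 0.71 in the second, 2 above 0. Tom1l2 with Flcn had 0.84 over 8 arrays, and Flcn with 2610507I01Rik 0.82.

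Likeness to other genes was read from the same deviations over 8 arrays, among 10578 genes, those with a mean level no lower than the median once the 8 genes and predicted or unnamed symbols were left out. The best matches were Stra6l (0.98) and Nup43 (0.96) for Ulk2, Rtp4 (0.99) and Apol9a (0.99) for Prpsap2, and Cldn11 and Exosc9 (both 0.95) for Dhrs7b. For Tmem220 they were Wrn (0.98) and Hddc3 (0.97), for Tom1l2 Zfp710 (0.98) and Zswim9 (0.98), and for Flcn Ppp1r13l (0.995) and Nol9 (0.98). Zfp39 was closest to Bbs2 (0.98) and Eapp (0.96), and 2610507I01Rik to Pwwp2a (0.98) and Txnrd3 (0.98). Between 15 and 124 of the 10578 genes exceeded 0.9 for each of the 8, so a value that high does not single out a match. Of these 16 matches, 0 passed the limma threshold between groups, and Pwwp2a alone lies on chromosome 11.

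Genes that work with the products of the changed neighbours, or are related to them, were described from 8 lists. Of 84 measured genes 1 passed by limma (1.19%, beside 1.65% of all genes), and 16 had an unadjusted p under 0.05 (19%, beside 15.9% of all genes). The median of their differences was -0.03, beside 0.01 over all genes. Groups did not overlap for 10 of them (11.9%, beside 10.4% of all genes).

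Folliculin's partners, the Rag GTPases and the Ragulator complex made up 13 genes, of which 0 passed, 4 had an unadjusted p under 0.05 and 3 had a difference above 0. Their summed intensity was 12.32 to 12.40 on the log2 scale in NCOR KO arrays and 12.43 to 12.50 in WT arrays, so the groups did not overlap on that sum. The gap between the groups was small, from 12.401 to 12.426. The same sum overlapped between groups in the other 7 lists, for example at 12.55 to 12.67 in NCOR KO arrays and 12.64 to 12.74 in WT arrays for the ULK list. Since 10.4% of all genes had groups without overlap, nothing further is read from 1 such list of 8. The largest difference was that of Fnip2, which encodes a folliculin-interacting protein. It was at -0.44 ± 0.11 (SE; 8.44 ± 0.18 in NCOR KO and 8.89 ± 0.20 in WT, SD, n = 4 each), with an adjusted p of 0.0893 that reached 0.0417 with the replicate block, 0.0429 with array centring and 0.0484 with array weights. TFEB, TFE3, their relative MITF and target genes numbered 9, with 0 past the threshold and 2 at an unadjusted p under 0.05. The largest there was Gpnmb, a lysosomal glycoprotein gene (0.17 ± 0.07 SE, adjusted p = 0.247).

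In the list for the ULK complex and early autophagy 0 of 12 genes passed and 3 had an unadjusted p under 0.05. Atg14, a subunit gene of the autophagy lipid kinase complex, had the largest difference (-0.35 ± 0.10 SE, adjusted p = 0.112). Ulk1, the close relative of Ulk2, was at -0.09 (adjusted p = 0.616), beside -0.70 for Ulk2. Among PRPP synthetases and purine enzymes 0 of 9 genes passed and 0 had an unadjusted p under 0.05. Prpsap1, the closest relative of Prpsap2, was at 0.02 (adjusted p = 0.902), and the largest difference was that of Adsl, a purine lyase gene (-0.21 ± 0.10 SE, adjusted p = 0.348).

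In ether lipid synthesis 0 of 9 genes passed and 3 had an unadjusted p under 0.05. Pex5, an import receptor of peroxisomes, was at 0.19 ± 0.07 (SE, adjusted p = 0.194), and Gnpat, which encodes the first enzyme of that pathway, at 0.16 ± 0.05 (SE, adjusted p = 0.174). Agps, which encodes the enzyme that forms the ether bond, was at -0.16 ± 0.06 (SE, adjusted p = 0.263), opposite in sign to both. Of 8 short-chain dehydrogenases related to Dhrs7b 1 rose, Dhrs9, a retinol dehydrogenase gene (6.45 ± 0.11 in NCOR KO and 5.06 ± 0.43 in WT, SD, n = 4 each; adjusted p = 0.00459), while Dhrs7 was at 0.15 (adjusted p = 0.563). The TOM1 family and its endosomal partners had 0 of 11 past the threshold and 1 at an unadjusted p under 0.05, and the largest difference was that of Stam (0.17 ± 0.10 SE, adjusted p = 0.450). Among cofactors of KRAB zinc fingers and other zinc finger genes 0 of 13 passed and 2 had an unadjusted p under 0.05. The largest was Zfp354a, at -0.34 ± 0.12 (SE, adjusted p = 0.215, or 0.0214 without WT replicate 2).

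**Figure D4:**
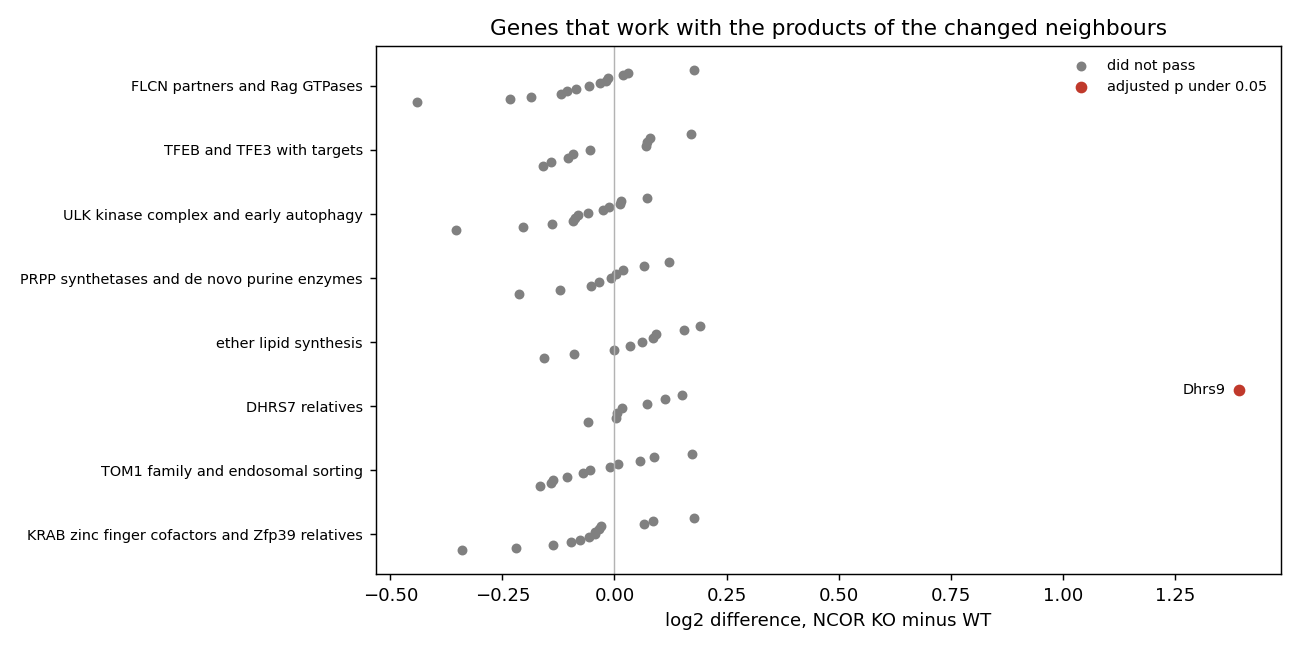
Log2 difference (NCOR KO minus WT) of 84 genes in 8 lists of genes that work with the products of the changed neighbours or are related to them. Dhrs9 at 1.39 is the only point past the limma threshold, and the other points lie between -0.44 and 0.19.

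The arrays were alike in level and highly correlated. Their median intensities lay between 41 and 44.1. The correlation of array with array, taken over genes that are no independent replicates, was 0.994 to 0.997 within and 0.992 to 0.996 between groups. The first principal component of all genes (33.1% of variance) still set the groups apart. It ran from -18.7 to -8.87 in NCOR KO arrays and from 9.10 to 15.2 in WT arrays. Hepatocyte markers such as Alb had summed log2 intensities of 15.89 to 15.94 in NCOR KO and 15.90 to 15.94 in WT arrays, with 0 of 8 past the threshold and 0 at an unadjusted p under 0.05. Markers of some other cells differed more. Lymphocyte markers rose in 2 of 7 cases, Cd3e (0.47, adjusted p = 0.0373) and Cd79a (0.41, adjusted p = 0.0173), where 1.65% of all genes passed. An unadjusted p under 0.05 was found for 3 of the 7, and 5 were above 0. Cd3g (-0.04, adjusted p = 0.915) and Ncr1 (-0.03, adjusted p = 0.914) were below 0. All of these markers but Nkg7 lay below the median level of all genes. The lymphocyte sums were 8.40 to 8.60 in NCOR KO and 8.20 to 8.28 in WT arrays. Cholangiocyte markers rose in 1 of 5 cases, Epcam (0.41, adjusted p = 0.0452), beside the same 1.65% of all genes. An unadjusted p under 0.05 was found for 3 of these 5. All 5 were above 0, with Krt7 (0.07, adjusted p = 0.726) and Krt19 (0.08, adjusted p = 0.535) nearest to it. The cholangiocyte sums were 8.53 to 8.76 in NCOR KO and 8.31 to 8.37 in WT arrays. Endothelial markers were above 0 in 8 of 8 cases with 0 past the threshold and 6 at an unadjusted p under 0.05 (15.9% of all genes had one). Their sums overlapped slightly between groups, at 12.80 to 13.02 in NCOR KO and 12.58 to 12.83 in WT arrays. Macrophage markers (0 of 8 past the threshold, 11.38 to 12.19 in NCOR KO and 11.09 to 12.05 in WT arrays) and stellate cell markers (0 of 7, 10.86 to 11.05 in NCOR KO and 10.90 to 11.13 in WT arrays) also overlapped between groups, each with 0 unadjusted p-values under 0.05. The part of these cell types in the differences of the 8 genes was not tested. In bulk liver a change in the number of cells of a type and a change in RNA per cell cannot be told apart.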

How the data were processed

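RNA of 8 livers was extracted with Trizol, labelled with biotin and hybridised to Affymetrix Mouse Gene 2.0 arrays, per the labels' protocols. The deposited values are linear probe-set intensities, 5.42 to 13268. RMA and Partek made them, per the submitters' processing notes, while versions, any filter and the genome are not given in the sources used here. No detection calls were used, and precision is limited by the number of arrays.

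Log2 was taken with no further scaling. Of 41345 probe sets, 23521 had a single gene in the platform annotation, and 23328 of these matched RefSeq by gene identifier. The brightest probe set of each gene was kept (22180 genes), while every probe set of the described genes is reported. The test of NCOR KO against WT was limma 3.58.1 (R 4.3.3; lmFit and eBayes with intercept and group), with Benjamini-Hochberg adjustment over all genes and a threshold of 0.05. All adjusted p-values are limma's, and differences are NCOR KO minus WT. The steps were tested on simulated data with 50 genes planted at each fold. Recovery was 30% at 1.2-fold, 82% at 1.5-fold, 96% at 2-fold and 100% at 4-fold. A gene that did not pass is therefore not shown to be unchanged.

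The genes described, the lists and the alternatives were chosen with earlier results of these data known. Named besides the 8 genes were the 3 measured genes on each side of Ncor1, called genes among the 200 nearest, direct neighbours of each gene, up to 4 called genes (or else the largest) per list, 2 best matches per gene and called markers, without predicted symbols. Rnf187, Trim11, H2aw, Wrap53, Trim17, Ulk1, Prpsap1, Gnpat, Agps, Dhrs7, Alb, Cd3g, Ncr1, Nkg7, Krt7 and Krt19 were named after their values were seen. The RefSeq table (GRCm38.p6) gave gene order and promoters only, since the array's build is unknown. Alternatives were quantile normalization, array centring, array weights, a trend and robust variance, a filter on dim genes, other uses of probe sets, the replicate block, other thresholds and widths, and left-out arrays. Same-numbered arrays did not deviate together (correlations across genes of -0.09 to 0.02), so the numbers were not taken as pairs. Plots used matplotlib 3.10.9 (Python 3.11.15).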

Additional observations from a re-analysis of the deposited data

Results flagged for a closer look

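In Gpnmb, WT replicate 4 (4.77) lay far above the other WT arrays, whose nearest value was 4.58. In Pex5, WT replicate 1 (8.83) lay below the other WT arrays, whose nearest value was 8.89. These were 2 of 72 groups of 4 arrays examined for a lone extreme value, and chance alone would mark about 1 group in 20. No value of the 8 genes around Ncor1 stood apart in this way.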

How the results depend on the processing

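The 8 genes kept their direction in each alternative run, and 102 of 106 differences moved by less than 1 SD. The exceptions were other uses of probe sets, which gave -0.55 (mean) and -0.74 (dimmer) for Tom1l2 and -0.60 (mean) and -0.23 (dimmer) for Zfp39. Over all genes 366 passed, against 551 among genes at or above the median level, 202 without WT replicate 2 and NCOR_KO replicate 1, 88 at a threshold of 0.01, 807 at 0.1, and 120 to 297 without single arrays. Among the 200 genes nearest to Ncor1 9 passed, against 15 with each array centred on its median, 14 with array weights, 4 at 0.01, 16 at 0.1, and 4 to 10 without single arrays. In the partner lists 1 passed, against 2 with array centring, array weights or both arrays left out, 0 among genes at or above the median level, where Dhrs9 is not tested, and 1 to 2 without single arrays. With the replicate number as a block, 155 passed over all genes, 4 of the 200 and 2 in the lists. The numbers share no source in the labels.

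Signs turned only in small differences, and the cause was not tested. Ttc19 became 5.99e-05 with quantile normalization and ran from -0.0975 to 0.0123 without single arrays, above 0 without NCOR_KO replicate 4. Tmem11 ran from -0.0814 to 0.0197 without single arrays, above 0 without that same array. Tmem238l became -0.00343 with quantile normalization and -0.0143 with array centring, and ran from -0.0101 to 0.0690 without single arrays, below 0 without WT replicate 1. Drc3 became -0.00328 with array centring and -0.0122 with array weights, and ran from -0.0615 to 0.104 without arrays, below 0 without WT replicate 2 (-0.0548), alone or with NCOR_KO replicate 1. Btnl10 became 0.00795 with array weights and ran from -0.0629 to 0.0365 without arrays, above 0 without WT replicate 2 (0.0250), alone or with NCOR_KO replicate 1. Of 409 values for named neighbours and partners, 384 kept their direction and side of the threshold. Precision is limited by 4 arrays a group, and no detection calls were used.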
